A study of Salmo salar with 79 samples.

Results

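The matrix metalloproteinases mmp9 and mmp25 were followed through skin wounds of Atlantic salmon kept at 2 stocking densities. The array carried 14841 salmonid probes, and 3 of them were chosen here by identifier: Ssa#GRASP209155851 and Ssa#KSSb2780 for mmp9, and Ssa#S18877812 for mmp25. The identifiers are shortened to GRASP209155851, KSSb2780 and S18877812 from here on. The gene names come from the study's own list, which was selected on these same arrays. The reference annotation of the species holds 1 mmp9 gene and 2 mmp25 genes, mmp25a and mmp25b, and which mmp25 gene S18877812 reads was not settled.

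Matrix metalloproteinases are zinc-dependent proteases that cut proteins of the extracellular matrix and are made as inactive proenzymes. Mmp9 is a secreted gelatinase that cuts denatured collagen and basement membrane collagen, and in mammals it is stored in neutrophil granules and also made by macrophages and by keratinocytes at a wound edge. Mmp25 is held at the cell surface by a lipid anchor, and in mammals it is best known from neutrophils.

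Post-smolts with a punch wound in the skin were held in 2 tanks. The tank of high fish density (HFD) was stocked at 100 kg/m3 and the control tank at 20 kg/m3. The paper reports that biomass was not adjusted afterwards, so that density rose in the HFD tank and fell in the control tank. Wounded skin came from 5 HFD fish and 5 control fish on each of 7 days post wounding (dpw). These were 1, 3, 7 and 14 dpw early on and 36, 43 and 57 dpw later. For RNA, the methods describe taking a part of the wound itself. Intact skin from 4 HFD fish and 4 control fish before wounding stands for 0 dpw. The RNA of each of the 78 fish was labelled with Cy3 and read on a 1-colour oligonucleotide array. With 1 tank for each density, density and tank cannot be told apart, and p-values measure the spread between the fish of these tanks.

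The level of a probe is its processed intensity on the log2 scale minus the 75th percentile of its array, so that 0 marks that percentile. It lay between 254.0 and 1066 intensity units over the 79 arrays (medians 560.3 for HFD and 529.8 for control). The share of probes well above background ranged between 60.1% and 94.5% (medians 85.5% for HFD and 83.6% for control). On the slide with the lowest shares, from 60.1% to 78.4%, there were 2 HFD arrays and 6 control arrays. All 3 probes were well above background on all 79 arrays, no spot was saturated, and the number of arrays limits the precision. Arrays of 36 to 57 dpw were on other slides than those of 0 to 14 dpw, which included intact skin. For these later days, wounding and this split of the slides cannot be told apart. The 5 keratin probes of the study's list, markers of epidermis, were above background in every group, with a summed signal of 32.2 to 67.1 times the array's 75th percentile in intact HFD skin and 25.2 to 54.7 times in intact control skin.

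Transcription of mmp9 was far above intact skin in wounds of both densities at 1 dpw and had its highest mean at 3 dpw. With GRASP209155851, the HFD fish at 3 dpw had levels of 7.83, 7.26, 7.17, 7.53 and 7.31, against -1.40, -0.23, 1.37 and 0.17 in intact HFD skin. The control fish at 3 dpw had levels of 5.55, 6.15, 7.11, 5.61 and 7.10, against -0.50, -0.99, -1.05 and -1.02 in intact control skin. No wound value came near an intact one, and the 4 intact HFD fish were spread more widely than the 4 intact control fish. How many of all tested probes separated wounded from intact fish was not counted. The log2 difference between 3 dpw and intact skin was 7.44 in HFD fish (SE 0.46, a 174-fold difference, 95% interval 85.2 to 356) and 7.19 in control fish (SE 0.36, 146-fold, 83.0 to 258). With limma the Benjamini-Hochberg adjusted p was 6.05e-06 for HFD and 6.6e-06 for control. KSSb2780 gave 7.23 in HFD fish (SE 0.40, 150-fold) and 6.83 in control fish (SE 0.34, 114-fold).

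**Figure D1:**
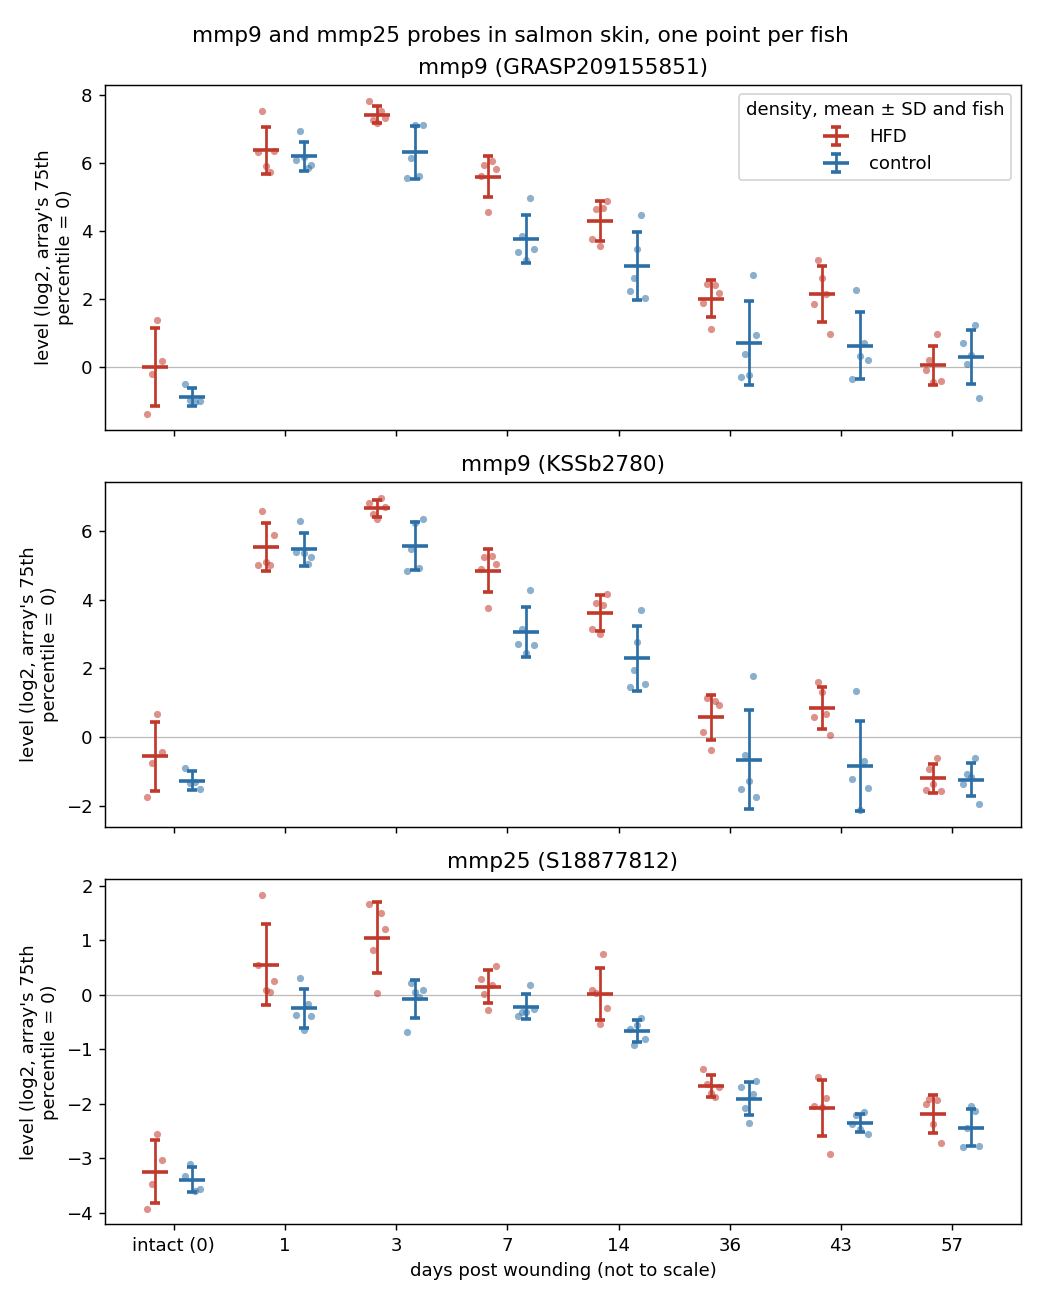
Level of each probe (log2, 0 is the array's 75th percentile) in each fish by days post wounding, with HFD left of control at each day and the bars giving mean ± SD (4 fish per density in intact skin, 5 at other days). Both mmp9 probes have their highest means at 3 dpw, 7.42 and 6.66 in HFD fish against 6.30 and 5.56 in control fish, and mmp25 has its highest means there too.

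At 1 dpw both densities were already high. The levels of GRASP209155851 were 6.31, 7.52, 5.90, 5.74 and 6.36 in HFD fish and 6.08, 6.93, 6.18, 5.85 and 5.92 in control fish. The 2 sets of fish overlapped over nearly their whole range. Relative to intact skin the log2 difference was 6.39 in HFD fish (83.7-fold) and 7.08 in control fish (135-fold). For KSSb2780 the same differences were 6.08 in HFD fish (67.8-fold) and 6.73 in control fish (106-fold).

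Mmp25 was also higher in wounds than in intact skin. Its levels at 3 dpw were 1.66, 0.82, 0.04, 1.51 and 1.21 in HFD fish, against -3.93, -3.47, -2.56 and -3.03 in intact HFD skin. In control fish they were -0.68, 0.21, 0.05, -0.04 and 0.09, against -3.32, -3.11, -3.60 and -3.56 in intact control skin. The wound values stood clear of the intact values at both densities. The share of all tested probes separated in this way was not counted. The log2 difference was 4.30 in HFD fish (SE 0.37, 19.7-fold, 95% interval 11 to 35.2, adjusted p 3.16e-05 with limma) and 3.32 in control fish (SE 0.20, 95% interval 7.29-fold to 13.8-fold, adjusted p 1.15e-05). At 1 dpw it was 3.80 in HFD fish (14.0-fold) and 3.15 in control fish (8.87-fold).

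From 7 dpw onward the levels came down. In HFD fish GRASP209155851 was above intact skin by 5.61 at 7 dpw and 4.31 at 14 dpw on the log2 scale, which are 49.0-fold and 19.9-fold. In control fish the same probe was above intact skin by 4.64 at 7 dpw and 3.85 at 14 dpw, which are 25-fold and 14.4-fold. Mmp25 was 10.5-fold and 9.62-fold above intact skin in HFD fish at these days and 9.06-fold and 6.63-fold in control fish. All 3 probes passed the Benjamini-Hochberg threshold of 0.05 with limma at 1, 3, 7 and 14 dpw at both densities. The share of all tested probes called higher by the same test at 1, 3, 7 and 14 dpw was 12.1%, 19.7%, 18% and 17.7% in HFD wounds and 18.6%, 21.6%, 19.4% and 15.9% in control wounds. The median log2 difference over all tested probes lay between -0.32 and -0.17 in HFD wounds at the 7 wound days and between -0.21 and -0.11 in control wounds.

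At the late days fewer values differed from intact skin. Mmp25 was still above intact skin at 57 dpw, by 1.06 in HFD fish (SE 0.30, 2.08-fold, adjusted p 0.0226 with limma) and by 0.96 in control fish (SE 0.21, 1.94-fold, adjusted p 0.00826). Its levels at 57 dpw were -2.01, -1.90, -2.38, -1.94 and -2.72 in HFD fish and -2.79, -2.45, -2.05, -2.14 and -2.77 in control fish. All 5 control fish were above their intact group, and 1 HFD fish, at -2.72, lay inside the range of intact HFD skin. The share of all tested probes with control fish entirely above intact skin was not counted. KSSb2780 was at -1.55, -0.93, -1.36, -0.61 and -1.57 in HFD fish at 57 dpw, against -1.74, -0.75, 0.66 and -0.43 in intact HFD skin. Those 2 sets overlapped, with a log2 difference of -0.64 (95% interval -1.61 to 0.33, adjusted p 0.277 with limma). In control fish this probe differed from intact skin by 0.03 (-0.56 to 0.61). GRASP209155851 differed by 0.06 in HFD fish (-1.09 to 1.21) and by 1.16 in control fish (0.31 to 2.01, adjusted p 0.0412). The mmp25 call in HFD fish at 57 dpw was lost without the wounded and intact fish numbered 1, 2 or 4, which were left out together. The GRASP209155851 call in control fish was lost without any 1 of wounded fish 1, 2, 3 or 4 or of intact fish 6, 7 or 8.

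Counted over the 7 wound days, 18 of the 21 values in HFD fish and 17 of the 21 values in control fish passed this test, all of them higher in wounds. In HFD fish those that missed it were KSSb2780 at 36 dpw (log2 difference 1.14, adjusted p 0.0758 with limma) and both mmp9 probes at 57 dpw. In control fish they were GRASP209155851 at 36 dpw (1.58, adjusted p 0.0563) and KSSb2780 at 36, 43 and 57 dpw. All tests of a density share the 4 intact fish. With the fish of 1 number left out, the GRASP209155851 call in control fish at 43 dpw was lost in 6 of 8 fits. In HFD fish at 43 dpw the call was lost in 2 of 5 fits for GRASP209155851, 3 of 5 for KSSb2780 and 3 of 5 for mmp25. With all fish KSSb2780 had an adjusted p of 0.0429 with limma and an exact permutation p of 0.0556 there. The shares of all tested probes called higher at 36, 43 and 57 dpw were 15.4%, 11.6% and 12.3% in HFD wounds and 13.1%, 9.18% and 11.2% in control wounds. These shares depend on the scaling. Of the probes past 0.8 with an unadjusted p under 0.05 in HFD wounds against intact skin at 36 dpw, 27.2% were higher, against 50.2% with quantile normalization and 94.1% with the authors' scaled table, where the median over all tested probes was -0.23, 0.07 and 0.99. Mmp25 at 57 dpw in HFD fish was above intact skin by 1.54 with quantile normalization and by 2.07 with the scaled table, where those medians were 0.06 and 0.97.

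**Figure D2:**
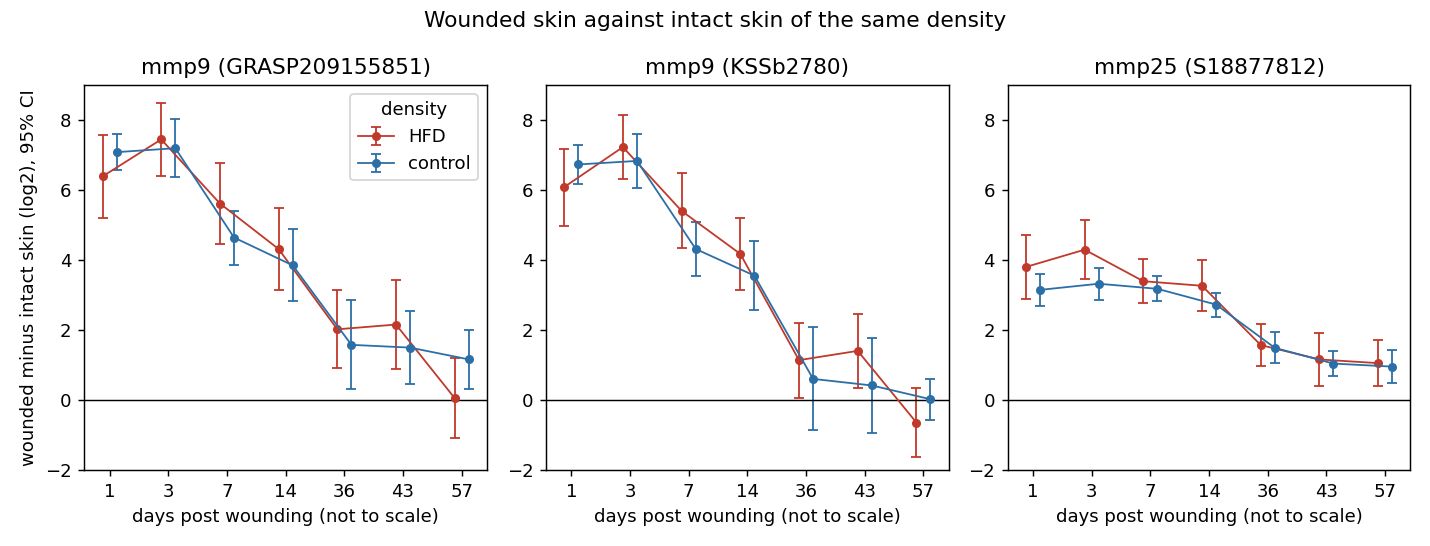
Wounded minus intact skin of the same density (log2, points with 95% intervals) at each day for the 3 probes, HFD left of control at each day. The mmp9 probes reach 7.44 and 7.23 in HFD fish at 3 dpw against 7.19 and 6.83 in control fish, and mmp25 stays above 0 at all 7 days in both.

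The order of the daily means was nearly the same at both densities. For both mmp9 probes it ran 3, 1, 7 and 14 dpw from the highest down, followed by 36 and 43 dpw in either order. Neighbouring days were compared with exact two-sided permutation tests, adjusted by Benjamini-Hochberg over 42 tests, and 8 differed, each with an exact p of 0.00794 and an adjusted p of 0.0417. In HFD fish these were 14 above 43 dpw for both mmp9 probes and 36 above 57 dpw for GRASP209155851. In control fish they were 1 above 7 dpw for both mmp9 probes and 57 dpw above intact skin for mmp25. At both densities 14 was above 36 dpw for mmp25. The pairs of days were set by the same means that were tested. An exact p of 0.00794 is the smallest that these group sizes can give, so the adjusted p depends on how many tests tie there. The mmp9 probes are named for the same gene, so their calls are not separate. The share of all probes that differ between these days was not counted. Arrays of 36, 43 and 57 dpw were on other slides than those of 14 dpw and of intact skin. For the calls across this split, day and slide cannot be told apart. The step between 3 dpw and 1 dpw was 1.06 for GRASP209155851 and 1.14 for KSSb2780 in HFD fish (exact permutation p 0.0317 and 0.0238, adjusted 0.0784 for both). In control fish this step was 0.11 and 0.10 (exact p 0.857 and 0.833). For mmp25 the means of 1, 3 and 7 dpw in control fish, -0.25, -0.07 and -0.22, were close together, and no neighbours among 3, 1, 7 and 14 dpw passed the adjusted threshold at either density.

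Between the densities, mmp9 was higher in HFD wounds at 3, 7 and 14 dpw with both probes, at 36 dpw with GRASP209155851 and at 43 dpw with both. The study called a probe when its log2 difference was beyond 0.8 with p under 0.05. Its methods do not say whether that p was adjusted, and the criteria are used here with the unadjusted p of limma at each day. The calls at 36 and 43 dpw ended without the slide of lowest detection, with 1.41 at 36 dpw (p 0.0676 with limma) and, at 43 dpw, 1.45 and 1.31 (p 0.0598 and 0.081 with limma). At 3 dpw the 5 HFD fish given above lay above all 5 control fish for GRASP209155851, with a difference of 1.12 (SE 0.33, 2.17-fold, 95% interval 1.30 to 3.62). The unadjusted p was 0.00695, the adjusted p over all probes 0.114 with limma, and the exact permutation p 0.00794, the smallest that 5 against 5 fish can give. With KSSb2780 the levels at 3 dpw were 6.81, 6.48, 6.36, 6.96 and 6.68 in HFD fish and 4.84, 5.48, 6.24, 4.92 and 6.34 in control fish. Here too every HFD fish was above every control fish, by 1.1 on average (SE 0.31, 2.14-fold). Of all tested probes, 2.86% had HFD fish entirely above control fish at 3 dpw, and 3.38% passed the study's criteria as higher.

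The difference in mmp9 was larger at 7 dpw. The levels of GRASP209155851 were 5.60, 5.94, 4.55, 6.06 and 5.80 in HFD fish and 3.38, 3.85, 3.13, 4.95 and 3.45 in control fish. HFD fish 3, at 4.55, and control fish 4, at 4.95, were the only ones to cross. The difference was 1.84 (SE 0.38, 3.57-fold, 95% interval 1.99 to 6.42, unadjusted p 0.000665, adjusted p 0.0771 with limma, exact permutation p 0.0159). With KSSb2780 it was 1.79 (SE 0.39, 3.45-fold, 1.90 to 6.29, adjusted p 0.0866). At 7 dpw 1.56% of all tested probes passed the criteria as higher in HFD fish.

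At 14 dpw GRASP209155851 was at 3.75, 4.63, 3.55, 4.66 and 4.86 in HFD fish and at 2.23, 2.62, 3.46, 4.46 and 2.03 in control fish. All HFD fish were above 4 of the control fish, and control fish 4, at 4.46, was above 2 of the HFD fish. The difference was 1.33 (SE 0.47, 2.52-fold, 95% interval 1.23 to 5.17, adjusted p 0.238 with limma), and KSSb2780 gave 1.32 (SE 0.43, 2.5-fold). The share of all tested probes called higher was 2.21%.

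At 36 dpw GRASP209155851 was at 1.86, 2.44, 1.1, 2.41 and 2.18 in HFD fish and at -0.32, 0.38, -0.25, 2.69 and 0.94 in control fish. Control fish 4 had the highest value of all 10, and the other control fish were below every HFD fish. The difference was 1.31 (SE 0.54, 2.48-fold, unadjusted p 0.0347 with limma, exact permutation p 0.0873) and passed the criteria, beside 0.862% of all tested probes that passed as higher. The call was lost without any 1 of HFD fish 1, 2, 4 or 5 or of control fish 1, 2 or 3, with differences between 1.06 and 1.34. KSSb2780 at 36 dpw gave 1.24 (SE 0.63, 95% interval -0.16 to 2.63, p 0.0766 with limma) and did not pass. Without control fish 4 its difference was 1.85 and passed (p 0.000667).

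At 43 dpw KSSb2780 was at 0.58, 1.61, 1.32, 0.66 and 0.05 in HFD fish and at -1.23, 1.33, -2.13, -0.71 and -1.50 in control fish. Control fish 2, at 1.33, lay among the HFD fish and the other control fish lay below them. The difference was 1.69 (SE 0.58, 3.23-fold, 95% interval 1.31 to 7.93, adjusted p 0.614 with limma) for KSSb2780 and 1.52 (SE 0.52, 2.88-fold) for GRASP209155851. The share of all tested probes called higher was 3.27%. At 57 dpw the differences were 0.04 (-0.57 to 0.64) for KSSb2780 and -0.24 (-1.13 to 0.65) for GRASP209155851, where 1.56% of all tested probes passed as higher.

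Mmp25 was higher in HFD wounds at the first days. At 1 dpw it was at 0.54, 1.83, 0.10, 0.06 and 0.24 in HFD fish and at -0.37, 0.31, -0.65, -0.16 and -0.38 in control fish. HFD fish 2 was the highest by far, and control fish 2, at 0.31, was above 3 of the HFD fish. The difference was 0.81 (SE 0.33, 1.75-fold, 95% interval 1.05 to 2.92, adjusted p 0.477 with limma), just past the criterion of 0.8, and the call was lost without HFD fish 1 or 2 or without control fish 1, 3, 4 or 5. At this day 0.65% of all tested probes were called higher, and mmp9 differed by 0.17 (-0.57 to 0.91) with GRASP209155851 and by 0.06 (-0.70 to 0.82) with KSSb2780.

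At 3 dpw the difference in mmp25 was 1.12 (SE 0.30, 2.18-fold, 95% interval 1.37 to 3.48, adjusted p 0.0938 with limma, exact permutation p 0.0317). HFD fish 3, at 0.04, was below 3 of the control fish and the other HFD fish were above all of them. At 7 dpw the difference was 0.37 (-0.01 to 0.74). At 14 dpw mmp25 was at 0.09, 0.02, -0.54, 0.74 and -0.24 in HFD fish and at -0.63, -0.93, -0.55, -0.43 and -0.81 in control fish. HFD fish 3 crossed with control fish 4, and the difference of 0.69 (SE 0.22, p 0.0102 with limma) was under 0.8. From 36 dpw on the differences were 0.23, 0.27 and 0.25, with intervals that included 0.

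In intact skin none of the 3 probes passed the criteria. The differences between intact HFD and intact control skin were 0.87 (95% interval -0.27 to 2.01) for GRASP209155851, 0.70 (-0.31 to 1.71) for KSSb2780 and 0.15 (-0.50 to 0.80) for mmp25, and 1.5% of all tested probes were called higher. Intact HFD fish 3 had the highest level of its group with all 3 probes and intact HFD fish 1 the lowest, at 1.37 and -1.40 for GRASP209155851. Fish 1 and 2 were on another slide than fish 3 and 4, with means of -0.82 and 0.77 for this probe.

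Over all 8 days, 11 of the 24 values passed the study's criteria, all higher in HFD fish, and 23 of the 24 were above 0. Of all tested probes between 0.65% and 3.38% passed as higher at a day. The 3 probes stand on the study's list, selected by this same difference on these arrays, so the counts are not independent evidence. None of the 24 passed the Benjamini-Hochberg threshold at a single day, with limma, while 12 had an unadjusted p under 0.05. Of all tested probes 12, 7 and 19 passed that threshold at 7, 14 and 43 dpw, and 0 at the other days. An unadjusted p under 0.05 was found for 852 of 12510 tested probes at 0 dpw and 1231 of 12606 at 1 dpw. At 3, 7 and 14 dpw it was found for 2550 of 12838, 2250 of 13065 and 2125 of 12831. At 36, 43 and 57 dpw it was found for 328 of 12643, 870 of 11991 and 443 of 11878. The 7 wound days together were tested by the mean of the daily differences, with all 16 groups in 1 fit. That mean was 1.01 (SE 0.18, 2.01-fold, 95% interval 1.57 to 2.58, adjusted p 0.000369 with limma) for GRASP209155851 and 1.03 (SE 0.18, 2.05-fold, 1.59 to 2.63, adjusted p 0.000321) for KSSb2780. For mmp25 it was 0.53 (SE 0.10, 1.45-fold, 1.26 to 1.66, adjusted p 0.000482). Of all tested probes 2.54% passed this test as higher in HFD fish. The study's list was selected by the daily differences that this mean averages, so this test is not independent evidence either.

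**Figure D3:**
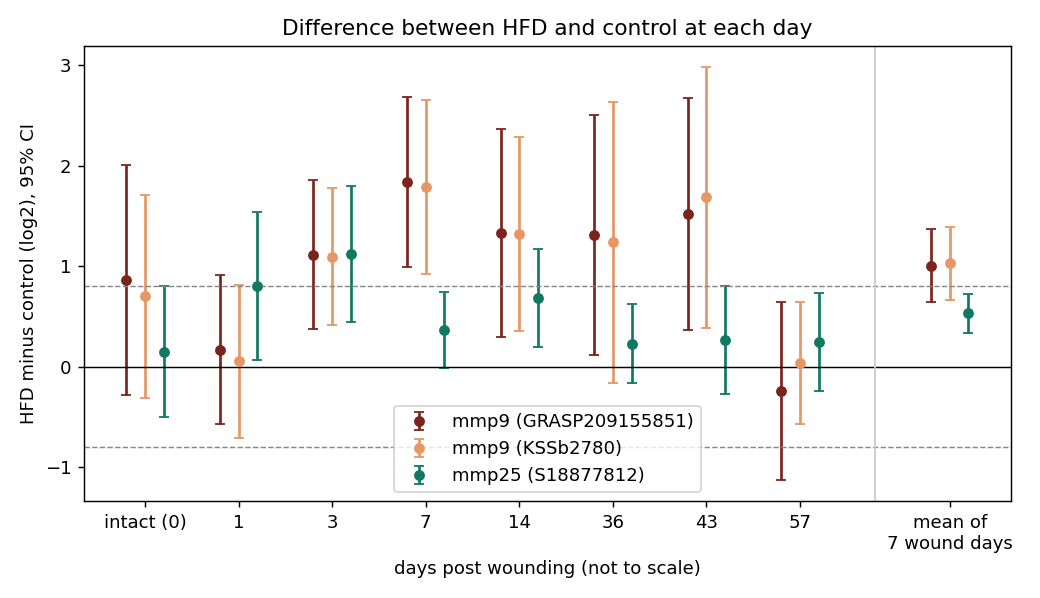
HFD minus control (log2, points with 95% intervals) for the 3 probes at each day and as the mean over the 7 wound days, with dashed lines at the criterion of 0.8 in either direction. The mmp9 points are highest at 7 dpw, 1.84 and 1.79, and near 0 at 1 and 57 dpw, while mmp25 is highest at 3 dpw, at 1.12.

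Arrays of both densities shared a slide on 11 combinations of slide and day, mostly with 1 fish each. On these, HFD fish were above control fish in 10 of 11 for GRASP209155851, 9 of 11 for KSSb2780 and 9 of 11 for mmp25. The study's list was selected by this difference on the same fish, so these counts are not independent evidence. The mmp9 probes are named for the same gene, so their counts are not separate. The share of all probes higher on shared slides was not counted. At 3 dpw the differences within the shared slide were 0.73, 0.48 and 1.58 for the 3 probes in this order, at 7 dpw 2.15, 2.24 and 0.55, and at 14 dpw 1.72, 1.60 and 0.91, each from 1 HFD fish and 1 control fish. At 1 dpw they were 0.13, -0.34 and 1.19, also from 1 fish each. At 36 dpw the mmp9 probes differed by between 0.92 and 2.26 on 2 slides, and at 43 dpw by between 0.30 and 2.08 on 2 slides. Fitted with slide as a block, 5 of the 24 values passed the study's criteria in place of 11. These 5 were at 3, 14 and 36 dpw. Of all tested probes 391 of 12838, 526 of 12831 and 108 of 12643 passed as higher in that fit at these days. Without the block these counts were 434, 283 and 109. The mmp9 calls at 3, 7 and 43 dpw and the mmp25 call at 1 dpw were lost and a call for KSSb2780 at 36 dpw was gained (1.98). In intact skin, where the densities shared no slide, slide was a random block.

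Whether wounds of the 2 densities differed more than intact skin did was tested as the difference of the responses, with intact skin of each density as its base. Mmp25 at 3 dpw was the 1 value of 21 past the study's criteria, with a response larger in HFD fish by 0.97 (SE 0.45, 95% interval 0.03 to 1.91, unadjusted p 0.0437, adjusted p 0.36 with limma). It was lost when the fish of 1 number were left out, wounded and intact together, for HFD numbers 1, 2, 4 and 5 and control numbers 1, 4, 5 and 6, and beside it 2.34% of all tested probes passed the criteria as higher. For mmp9 at 3 dpw the difference of responses was 0.25 (-1.06 to 1.56) with GRASP209155851 and 0.40 (-0.78 to 1.57) with KSSb2780, and with slide as a block the sign turned for both, at -1.67 and -1.89. At 7 dpw it was 0.97 (-0.42 to 2.37) and 1.09 (-0.24 to 2.41). The intervals are wide, and the 4 intact HFD fish had an SD of 1.14 for GRASP209155851 against 0.26 in the 4 intact control fish. The shares of all tested probes called higher were 0.835%, 2.13% and 1.31% at 1, 7 and 14 dpw and 0.67%, 1.18% and 1.07% at 36, 43 and 57 dpw.

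The mmp9 probes moved together from fish to fish. Over the 78 fish the Pearson correlation between GRASP209155851 and KSSb2780 was 0.989, and 0.916 for each fish's deviation from the mean of its group. Between GRASP209155851 and mmp25 it was 0.928 over the fish and 0.593 for the deviations, and between KSSb2780 and mmp25 0.914 and 0.49. These are descriptions, since the fish share arrays' scaling, tanks and days.

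**Figure D4:**
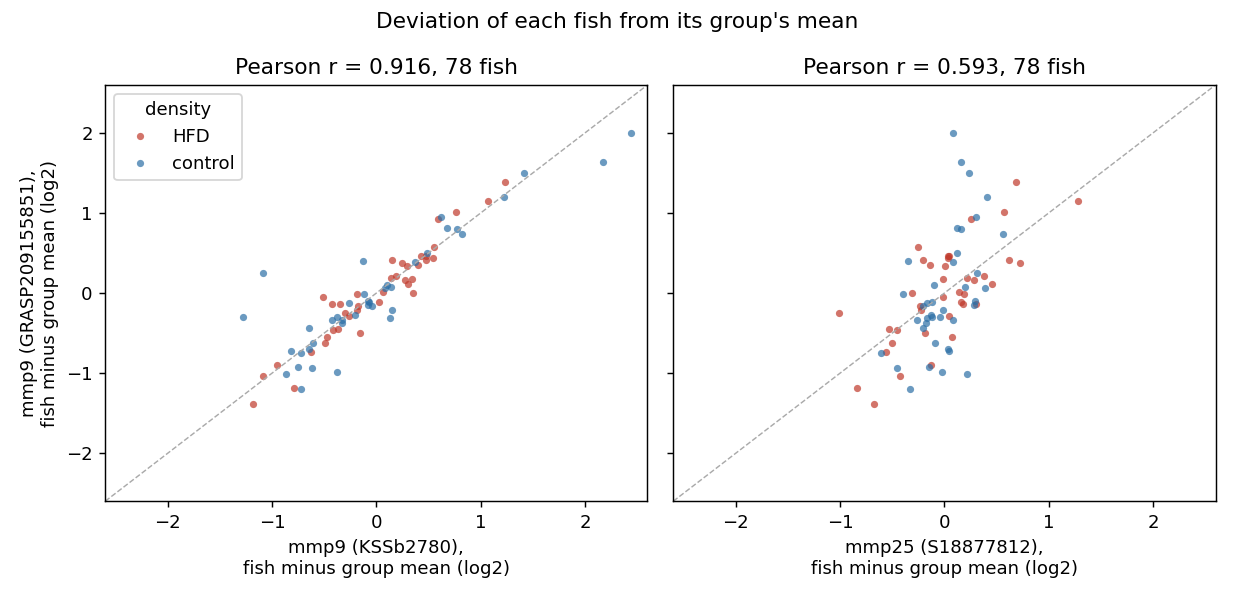
Deviation of each of the 78 fish from the mean of its group (log2), with GRASP209155851 on the vertical axis against KSSb2780 (left panel) and mmp25 (right panel), HFD and control fish in separate colours. The mmp9 probes lie near the diagonal (r = 0.916), and the points against mmp25 lie farther from it (r = 0.593).

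The probes with the pattern most like each of the 3 were ranked by Pearson correlation over the 78 fish among 11619 probes well above background on at least 75% of the fish. After each other, the mmp9 probes were closest to 2 probes for mmp13 (collagenase 3, which cuts fibrillar collagen), with r of 0.985 for GRASP209155851 and 0.987 for KSSb2780. Neutrophil cytosolic factor 1, a part of the phagocyte NADPH oxidase, came next for GRASP209155851 (r 0.965), followed by a further metalloproteinase probe, S25807320 (0.964). KSSb2780 was followed by another mmp9 probe, CL17Contig1 (0.982), and by S25807320 (0.974). The 5 probes closest to mmp25, with r between 0.955 and 0.973, were not named in the sources used here.

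The study's list held 7 other metalloproteinase probes: 3 for mmp13, 2 more for mmp9, S25807320, which is named only as a matrix metalloproteinase, and adamts15, a member of a related family that cuts proteoglycans. All 7 were higher in wounds than in intact skin at 1 and 3 dpw at both densities with limma and Benjamini-Hochberg adjustment, with median log2 differences of 5.44 and 7.34 in HFD wounds and 6.11 and 6.81 in control wounds. Of all tested probes 12.1% and 19.7% were called higher at 1 and 3 dpw in HFD wounds and 18.6% and 21.6% in control wounds. The medians include DW472976, an mmp9 probe that was not well above background on any intact array. At 36, 43 and 57 dpw 0 of the 6 tested were higher at either density. The shares of all tested probes at these days were 15.4%, 11.6% and 12.3% in HFD wounds and 13.1%, 9.18% and 11.2% in control wounds. These counts are not independent evidence, as the study drew the list from the same arrays.

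Between the densities, the study's criteria were passed by 4 of the 7 at 3 dpw, 6 of the 7 at 7 dpw and 4 of the 7 at 14 dpw, and by 1 of the 6 tested at 43 dpw, all higher in HFD fish. Of all tested probes 3.38%, 1.56%, 2.21% and 3.27% passed as higher at these days. The study selected its list by this same difference on these arrays, so the counts are not independent evidence. The list's medians at these 4 days were 1.30, 1.85, 1.66 and 1.24, against -0.05, 0.03, 0.03 and 0.03 over all tested probes. None passed in intact skin or at 1, 36 or 57 dpw. The mmp13 probe GRASP209156091 averaged 6.10 ± 0.62 in HFD fish and 4.24 ± 0.63 in control fish at 7 dpw (SD, n = 5 each), a difference of 1.86 (SE 0.36, adjusted p 0.071 with limma). At 14 dpw it averaged 4.46 ± 0.72 in HFD fish and 2.48 ± 1.62 in control fish, a difference of 1.99, with control fish between 0.92 and 4.92. The mmp13 probes AJ424540 and S31997300 gave 1.85 and 1.92 at 7 dpw, and S25807320 gave 1.97.

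The other mmp9 probes, CL17Contig1 and DW472976, moved with the 2 above. CL17Contig1 was higher in HFD fish by 1.50 (SE 0.35), 1.57 and 0.89 at 3, 7 and 14 dpw, and by 1.34 at 43 dpw. DW472976 was higher by 1.51 at 3 dpw (SE 0.32) and by 1.72 at 7 dpw. At 3 dpw its groups did not overlap, as for 2.86% of all tested probes with HFD fish higher. At 7 dpw not every control fish was well above background with DW472976, so 1.72 rests in part on values near background. DW472976 was not well above background on any intact array, so that its wound response is a bound against the lowest signal well above background: at least 21.2-fold in HFD fish and at least 6.93-fold in control fish at 3 dpw. Adamts15 passed at no day between densities, with 0.78, 0.61 and -0.35 at 1, 3 and 14 dpw. Over the mean of the 7 wound days 6 of the 7 passed Benjamini-Hochberg with limma, all but adamts15 (0.23, adjusted p 0.11). Of all tested probes 2.54% passed this test as higher. The study selected its list by the difference between HFD and control, so this count is not independent evidence. At 57 dpw CL17Contig1 and S25807320 were lower than intact skin in HFD fish, by -1.40 and -1.19 (adjusted p 0.027 and 0.034 with limma), where 21.6% of all tested probes were lower.

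**Figure D5:**
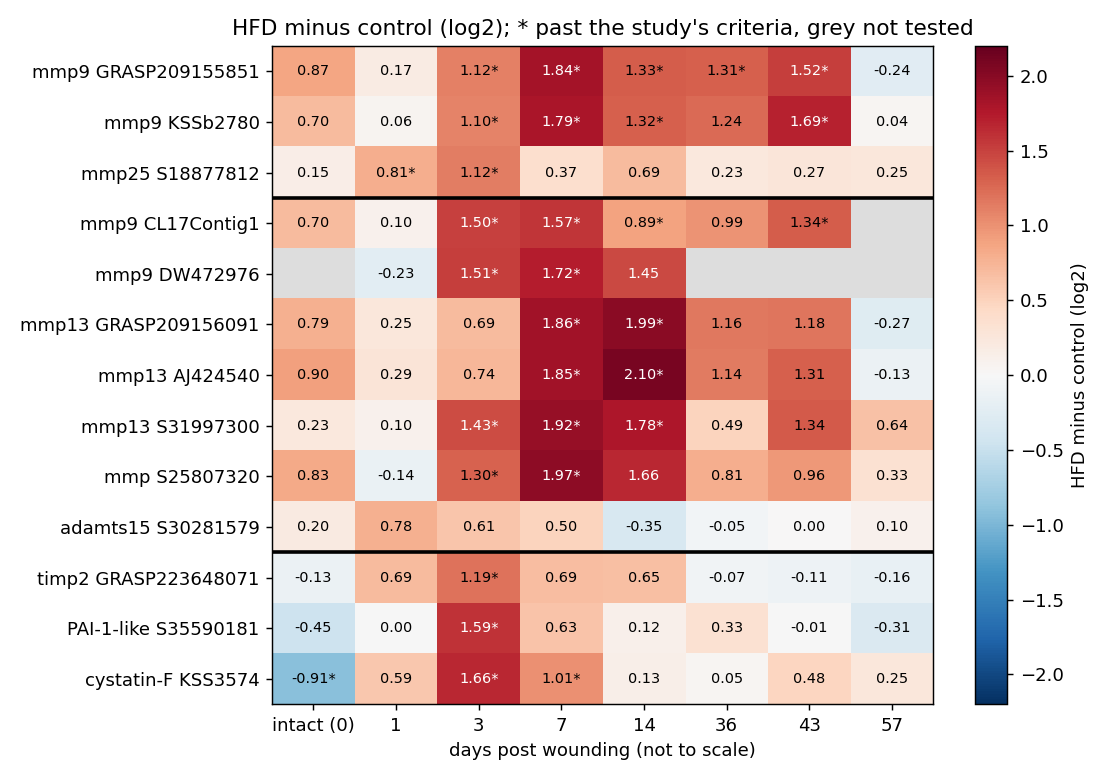
HFD minus control (log2) at each day for the 3 probes (top block), the 7 other metalloproteinase probes (middle) and the 3 protease inhibitors (bottom), with an asterisk where the study's criteria were passed and grey where a probe was not tested. Values past the criteria gather at 3, 7 and 14 dpw. These include 6 of the 7 other metalloproteinase probes at 7 dpw and all 3 inhibitors at 3 dpw. The study selected its list on the same arrays by the difference between HFD and control.

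The list also held 3 protease inhibitors. Timp2, which binds and blocks matrix metalloproteinases, averaged 3.08 ± 0.53 in HFD fish and 1.89 ± 0.54 in control fish at 3 dpw (SD, n = 5 each), a difference of 1.19 (SE 0.31, adjusted p 0.0924 with limma). A plasminogen activator inhibitor 1-like gene, whose protein blocks the activation of plasminogen, was higher in HFD fish by 1.59 (SE 0.48) and cystatin-F, an inhibitor of cysteine proteases of immune cells, by 1.66 (SE 0.49). So 3 of 3 passed the study's criteria at 3 dpw, beside 3.38% of all tested probes as higher. The study chose these probes on the same arrays, so this count and those below are not independent evidence. At 7 dpw cystatin-F passed (1.01), and timp2 gave 0.69 and the plasminogen activator inhibitor 0.63. In intact skin cystatin-F was lower in HFD fish by -0.91, where 0.304% of all tested probes were lower. The difference of responses at 3 dpw passed the criteria for all 3, at 1.32 for timp2, 2.03 for the plasminogen activator inhibitor and 2.58 for cystatin-F (adjusted p 0.26, 0.28 and 0.17 with limma). Cystatin-F passed it at all 7 days, with values from 0.96 to 2.58. Of all tested probes 2.34% passed it as higher at 3 dpw and between 0.67% and 2.13% on the other days. The 7 tests of cystatin-F subtract the same difference of intact skin, -0.91, so they are not separate results. Between HFD and control fish none of the 3 inhibitors passed the criteria at 1, 14, 36, 43 or 57 dpw.

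Other proteases and matrix proteins of the list went the other way or both ways. Of 6 serine proteases 1 was higher at 3 dpw, 1 was higher and 3 were lower at 7 dpw, and 3 were lower at 14 dpw, when HTRA1 and PRSS23, both secreted, differed by -1.05 and -1.57. Of 19 matrix protein probes 1 was higher and 3 were lower at 3 dpw, 9 were lower at 7 dpw and 14 were lower at 14 dpw, with medians of -0.39, -0.58 and -0.84. At 1 dpw 2 were lower (median -0.61), beside 353 of 12606 tested probes. Later 2 were higher at 36 dpw (median -0.20) and 1 at 43 dpw (median 0.45), beside 0.862% and 3.27% of all tested probes. Fibronectin, a glycoprotein of the provisional wound matrix, averaged 1.98 in HFD fish and 3.42 in control fish at 14 dpw, and collagen VII, of the anchoring fibrils under the epidermis, differed by -1.11. Hyaluronidase-2, which cuts hyaluronan, was the probe that was higher at 3 dpw, by 1.59. Of all tested probes 3.01%, 2.78% and 2.08% were lower in HFD fish at 3, 7 and 14 dpw. These probes were chosen by the study on the same arrays.

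Of 13 leukotriene and prostaglandin probes, for lipid mediators of inflammation, 9 were higher and 1 was lower in HFD fish at 3 dpw. Their median was 1.17, and of all tested probes 3.38% were higher and 3.01% were lower. Leukotriene A4 hydrolase, which makes the neutrophil attractant leukotriene B4, was higher by 1.50 (SE 0.25, adjusted p 0.062 with limma). Its HFD fish lay above all control fish, as for 2.86% of all tested probes. A lipocalin-type prostaglandin D synthase-like gene differed by -1.17. At 7 dpw 4 were higher and 3 were lower, beside 1.56% and 2.78% of all tested probes. Cytosolic phospholipase A2 gamma, of the enzymes that free fatty acids from membranes, was higher by 2.73 (SE 0.49). These probes too were chosen by the study on the same arrays.

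Markers of phagocytes moved with the metalloproteinases at 3 dpw. Of the 8 phagocyte oxidase and granule probes of the list, 7 were higher in HFD fish at 3 dpw and 0 at 7 and 14 dpw, where 3.38%, 1.56% and 2.21% of all tested probes were higher, with integrin beta-2 of the leukocyte adhesion receptors at 0.86 and 2 probes for cybb, the catalytic part of the oxidase, at 1.05 and 1.07. The summed signal of the 8 probes, in units of the array's 75th percentile, ranged between 35.7 and 82.2 in HFD fish and between 19.3 and 31.5 in control fish at 3 dpw, with no overlap. At 7 dpw, where mmp9 differed most, the sum was 13.8 to 27.6 in HFD fish (median 25.8) and 19.8 to 21.7 in control fish (median 21.3). At 14 dpw it was 11.6 to 17.8 in HFD fish (median 14.1) and 8.39 to 15.2 in control fish (median 9.26). In intact skin it was 1.98 to 3.28 in HFD fish (median 2.95) and 2.86 to 3.97 in control fish (median 3.72). The median log2 difference of the 8 probes was 1.11, 0.25 and 0.36 at 3, 7 and 14 dpw. At each of 43 and 57 dpw 1 was called higher, beside 3.27% and 1.56% of all tested probes. All 8 were above background in at least 1 fish of every group, and the study chose them on the same arrays. The part of these cells in the mmp9 and mmp25 values was not tested. In RNA of a piece of tissue, a change in the number of cells of a type and a change in RNA per cell cannot be told apart.

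The other cell type markers of the list were as follows. The sum of 5 epidermal keratin probes was 62.8 to 184 in HFD fish and 37.6 to 69.4 in control fish at 14 dpw, and 113 to 188 in HFD fish and 115 to 142 in control fish at 7 dpw. At 3 dpw it was 98.4 to 204 in HFD fish and 83.7 to 197 in control fish. Of the 5 keratin probes 1 was called higher and 1 lower at 7 dpw, and 2 were called higher at 14 dpw. The sum of 9 muscle probes was 17.2 to 26.6 in HFD fish and 11.8 to 21.4 in control fish at 3 dpw, and 10.1 to 32.8 in HFD fish and 22.1 to 68.9 in control fish at 14 dpw. At 1 dpw, when 3 of the 9 were called higher, it was 19.5 to 51.9 in HFD fish and 15 to 22.6 in control fish. At 14 dpw 4 of the 9 were called lower, with a median log2 difference of -0.87. At each of 3, 7, 36 and 43 dpw 2 were called higher, and 1 at each of 0 and 57 dpw. The sum of 3 hemoglobin probes was 6.33 to 25.9 in HFD fish and 2.40 to 11.2 in control fish at 3 dpw, when none was called. At 14 dpw all 3 were called lower, with a median log2 difference of -1.07 and a sum of 2.74 to 9.73 in HFD fish and 6.21 to 10.7 in control fish. At 36 dpw 1 was called lower, and at 57 dpw 2 were called higher. Of all tested probes 1.5%, 0.65%, 3.38% and 1.56% were called higher at 0, 1, 3 and 7 dpw. At 14, 36, 43 and 57 dpw these shares were 2.21%, 0.862%, 3.27% and 1.56%. Called lower were 2.78% at 7 dpw, 2.08% at 14 dpw and 42 of 12643 at 36 dpw. The study chose the marker probes on the same arrays. All of these probes were above background in at least 1 fish of every group. The 2 hemoglobin probes called at 57 dpw were so in 4 of the 5 control fish of that day. The part of these markers in the metalloproteinase values was not tested.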

How the data were processed

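Skin RNA of 78 fish was read with 79 Agilent arrays in 1 colour (Cy3). The authors deposited scanner files from Feature Extraction 12.0.1.1, whose processed intensity has the background subtracted and carries no normalization across arrays. A table of intensity values scaled to a common total was also deposited and is an alternative here. The methods name the STARS package and the criteria, and no test for the arrays. Samples were grouped by the labels' density and day. The 2 arrays of control fish 3 at 57 dpw were averaged as 1 fish.

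The 536 control spots were dropped, as were 0 to 45 outlier spots per array, log2 of the intensity was taken, and each array's 75th percentile was subtracted. Probes were fitted where the number of fish well above background reached the size of the smaller group, with limma 3.58.1 in R 4.3.3 (lmFit, eBayes) at each day, and p-values were adjusted by Benjamini-Hochberg over all tested probes. Levels of neighbouring days were compared by exact permutation tests. The fit was tested on simulated data. The 3 probes and the lists were chosen with earlier results of these data known. Probes of the other metalloproteinase and inhibitor lists are all named, and of the other lists at most 3 each, those with the lowest unadjusted p. The study's own fold changes were not used.

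The alternatives were quantile normalization, normexp (offset 50), the scaled table, filters on dim probes, kept outlier spots, either repeat array alone, 1 fit over 16 groups, slide as a block, replicate number as a block, the analysis of variance, the exact permutation test and the fish of each number left out, for 1 density at a time. Slide as a random block and leaving out the slide of lowest detection were chosen after seeing the data.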

Additional observations from a re-analysis of the deposited data

Results flagged for a closer look

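In 6 of the 48 groups of fish, 1 fish stood far from the others by Dixon's test, which by chance marks about 1 group in 20. With GRASP209155851 (mmp9) this was the highest intact control fish, at -0.50, the next being at -0.99. With KSSb2780 (mmp9) it was the lowest HFD fish at 7 dpw, at 3.75 with the next at 4.90, and the highest control fish at 1 dpw, at 6.28 with the next at 5.40. With mmp25 it was the highest HFD fish at 1 dpw, at 1.83 with the next at 0.54, the lowest control fish at 3 dpw, at -0.68 with the next at -0.04, and the highest control fish at 7 dpw, at 0.19 with the next at -0.26. The mmp25 response to wounding was larger in HFD than in control fish at 3 dpw by 0.97 by a test of the difference itself, with an adjusted p of 0.36 with limma.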

How the results depend on the processing

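The mean over the 7 wound days passed for all 3 probes under each alternative for which it was computed. It was not computed without the slide of lowest detection, with slide as a random block or with the replicate block. Nor was it computed for the analysis of variance or the exact permutation test. Of the 24 daily differences between HFD and control, 11 passed the study's criteria, 5 with slide as a block, 8 without the slide of lowest detection, between 9 and 12 under the other alternatives and between 9 and 12 with the fish of 1 number left out. With slide as a block the mmp9 calls at 3 dpw (0.73 with GRASP209155851, 0.48 with KSSb2780), 7 dpw (2.15 and 2.24) and 43 dpw (0.96 and 0.90) were lost and KSSb2780 at 36 dpw was gained (1.98). The block also changed the calls over all tested probes, at 14 dpw from 283 to 526 of 12831 called higher. Slide was a fixed block where the groups compared shared slides and a random block at 0 dpw and in other comparisons without shared slides. Without the slide of lowest detection the 3 late mmp9 calls ended. The mmp25 call at 1 dpw was lost with quantile normalization (0.78), normexp (0.72) and the scaled table (0.78). Wounds against intact skin gave 13 to 19 calls in HFD fish with the fish of 1 number left out, against 18, and 15 to 17 in control fish, against 17, where normexp gave 12 and the authors' scaled values 20. With the scaled values, 9132 of 12744, 7992 of 12223 and 8454 of 12156 tested probes passed in control wounds at 36, 43 and 57 dpw. These counts hold both directions, and the median log2 differences over all tested probes were 0.93, 0.87 and 0.87. The 20 calls stand beside that shift. The difference of responses passed for 1 value, 2 with normexp, 0 with slide as a block and 0 to 4 with the fish of 1 number left out, the 4 without wounded and intact HFD fish 3.

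The sign turned for these values, none of which had passed its test. HFD minus control at 0 dpw was -0.00699 for mmp25 with quantile normalization and -0.13 with normexp. With slide as a block it was -0.34 for KSSb2780 at 1 dpw and 0.15 for GRASP209155851 at 57 dpw, and without the slide of lowest detection 0.095 for GRASP209155851 at 57 dpw. With the first array of the repeated fish KSSb2780 gave -0.11 at 57 dpw. KSSb2780 against intact skin at 57 dpw gave 0.31 in HFD fish with the scaled table, and in control fish -0.041 with normexp and -0.12 with the repeat array. The difference of responses at 3 dpw with slide as a block was -1.67 for GRASP209155851 and -1.89 for KSSb2780. With the fish of 1 number left out, HFD minus control ranged over -0.077 to 0.38 for mmp25 at 0 dpw, -0.12 to 0.36 for GRASP209155851 and -0.21 to 0.26 for KSSb2780 at 1 dpw, and -0.14 to 0.19 for KSSb2780 at 57 dpw. Against intact skin the ranges were -0.37 to 0.65 for GRASP209155851 in HFD fish at 57 dpw and, for KSSb2780 in control fish, -0.0033 to 1.00 at 36 dpw, -0.12 to 0.74 at 43 dpw and -0.13 to 0.33 at 57 dpw. For the difference of responses they were -0.31 to 0.78 for GRASP209155851 and -0.036 to 0.88 for KSSb2780 at 3 dpw, and for mmp25 -0.044 to 0.55 at 7 dpw, -0.22 to 0.34 at 36 dpw, -0.12 to 0.34 at 43 dpw and -0.17 to 0.37 at 57 dpw. The causes were not tested.

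Fish of the 2 densities with the same number did not pair, with correlations of their deviations between -0.59 and 0.38 and the same number the best match for 7 of 35 fish. The replicate block gave 12 calls between HFD and control and 17 in HFD wounds against intact skin. Over all tested probes, quantile normalization put 58.1% of calls at 0 dpw on the HFD side, against 83.2%, and 40.9% at 1 dpw, against 18.9%. Neighbouring days differed 8 times, 9 with quantile normalization and 9 with the scaled table.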
